A study of Mus musculus with 31 samples.

Results

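Solute carriers are membrane proteins that move ions, nutrients and metabolites across cell and organelle membranes. Their transcripts were followed in D10.G4.1, a mouse T helper clone of the Th2 type, after neuromedin U (NmU) or phosphate-buffered saline (PBS). The members were all probe sets, other than array controls, whose only gene symbol starts with Slc and a digit, and whose mean signal was over 20.2 in at least 1 of the 8 groups. Of 185 such probe sets for 151 genes on the array, 117 for 103 genes passed this level and 68 did not. They stood among 7930 probe sets that passed it, of 12422 in all.

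The 8 groups were PBS and NmU at 0.8, 3, 6 and 12 h, with 4 arrays each except NmU at 3 h, which had 3, so that 31 total RNA samples were measured. Every group was the same clone, with the dose of NmU and the medium not stated in the labels. The labels do not say whether replicates were separate cultures, so a p-value here reflects the spread between arrays of a group, possibly only technical. Precision is limited by how many arrays each group has.

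Solute carriers are numbered by family, and most families share a kind of cargo. Secondary transporters of this group use gradients of sodium, protons or other solutes, while a few, such as the glucose carriers of family 2, let their cargo flow down its own gradient. T cells that receive an activating signal take up more glucose and amino acids, and CD98, the pair of the heavy chain Slc3a2 and the light chain Slc7a5, is a known surface mark of such cells. Family 25 sits in the inner mitochondrial membrane, and many members of family 35 carry nucleotide sugars into the endoplasmic reticulum and Golgi for glycosylation. A few symbols of this group name partners, not carriers: Slc9a3r1 and Slc9a3r2 are scaffold proteins that bind the tails of membrane proteins, and Slc4a1ap is an adaptor.

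Of the 117 member probe sets 96 passed the level in all 8 groups, 21 in 7 or fewer and 4 in 1 group. Of the 21, 1 passed in NmU groups alone and 4 in PBS groups alone, and such a probe set tends to differ between treatments by the way it was kept. The members nearest the level were Slc2a5, with a highest group mean of 20.4, and Slc39a3 at 20.6, while Slc26a2 at 18.3 and Slc35a4 at 17.4 lay just outside it. Tested with no filter, 1 of the 68 probe sets under the level was called, Slc17a1 at 3 h (log2 difference 0.28, limma adjusted p = 0.0207), which is singled out here after its value was seen. The Slc17a1 probe sets had highest group means of only 13.1 and 7.05, against 5.8, the floor to which lower values were raised. This call therefore rests on signals near the floor.

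The T cell label was checked against markers. Cd3g lay between 951.7 and 1527.4 on all arrays, Cd3d at 1078 to 1763 on its brighter probe set and the Th2 factor Gata3 at 1815 to 2842, whereas Cd2 lay at 7.4 to 31.9 and Cd5 was at the floor of 5.8 on 14 arrays. Of markers of other cells, the 2 Lyz2 probe sets were at the floor on 28 and 29 arrays and the 2 Adgre1 probe sets on 26 and 23. Others of the same lists were above the floor on all 31 arrays: the myeloid Itgax (55.4 to 166.4), Cd14 (54.5 to 123.3), Cd68 (25 to 56.2) and Csf1r (16.9 to 45.5), each on its brightest probe set, and the B cell Cd79a (22.4 to 88.7) and Ms4a1 (22.4 to 74.1). Summed over 13 probe sets, myeloid markers were 336 to 404 with NmU at 6 h against 278 to 313 in PBS. Of the 5 measured genes, Mpo and Cd68 were called higher at 6 h, where 2.85% of all probe sets were. A dimmer Mpo probe set differed by -0.18 at 6 h (limma adjusted p = 0.776). Cd68 was also called higher at 12 h (0.61, limma adjusted p = 0.0457), where 0.858% of all were. The summed myeloid signal at 12 h was 335 to 404 with NmU and 275 to 375 in PBS, with overlap. The part of these markers in the 6 and 12 h results was not tested. The summed signal of 8 B cell probe sets overlapped between treatments at every time. Of 9 measured T cell markers 1, 3, 2 and 1 rose at 0.8, 3, 6 and 12 h and 0 fell. Of all probe sets, 0.782%, 4.44%, 2.85% and 0.858% were higher at these times. The markers that rose were the Th2 cytokine Il4 at every time, the kinase Zap70 at 3 and 6 h and Gata3 at 3 h. The 16 T cell probe sets summed to 16786 to 20156 with NmU at 3 h against 10385 to 11267 in PBS. At 3 h Il4 rose by 2.70 and Zap70 by 0.76 on their brightest probe sets, and Gata3 by 0.43. Cd3d, Cd3g, Cd3e and Cd4 differed by -0.02, -0.20, -0.20 and -0.18, Cd28 by 0.26 and Cd2 by 0.15, none of them called. The part of the summed shift in the carrier results was not tested. In RNA from whole cultures, fewer cells of a type and less RNA per cell cannot be told apart.

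Most calls among solute carriers came at 3 h. A probe set was called at a limma adjusted p under 0.05 over all 7930. At 0.8 h, 0 of the 117 were called higher (0.782% of all probe sets) and 0 lower (0.0631%), with 7 of them at an unadjusted p under 0.05, or 5.98% against 6.8% of all. At 3 h, 9 were higher and 9 lower, 7.69% each, against 4.44% and 5.73% of all probe sets. At 6 h, 4 were higher and 3 lower (3.42% and 2.56%, against 2.85% and 2.03%). After scaling to a common median they were 3 and 3, and the split over all probe sets turned from 226 higher and 161 lower to 113 and 173. At 12 h, 0 were higher (0.858% of all) and 1 was lower (0.855%, against 0.404%), with 13 at an unadjusted p under 0.05, or 11.1% against 11.1% of all. These shares lay near those of the whole array, and no test set them against each other. In all, 21 probe sets for 20 genes were called at 1 or more times.

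**Figure D1:**
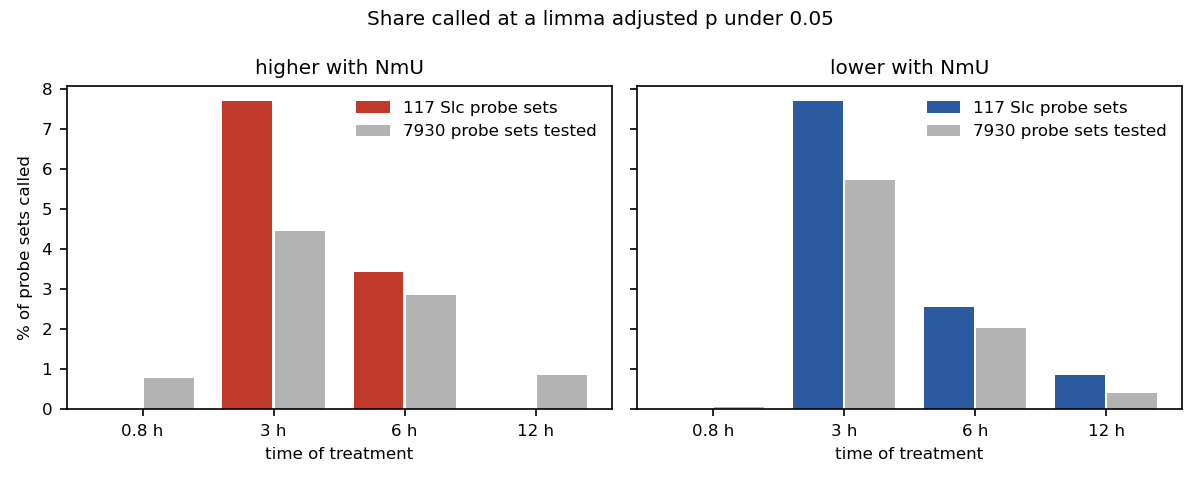
Share of probe sets called higher (left) or lower (right) with NmU at each time, in percent, for the 117 solute carrier probe sets (coloured) and all 7930 tested (grey). The shares were highest at 3 h, at 7.69% in each direction, against 4.44% and 5.73% of all probe sets.

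The counts at 3 h rested on few arrays. Without PBS 3 h replicate 1 or 2 there were 5 higher, and without NmU 3 h replicate 1, 2 or 3 there were 3, 4 and 4. Lower probe sets numbered 5, 3 and 5 without NmU 3 h replicate 1, 2 or 3. With quantile normalisation the split at 3 h was 10 higher and 6 lower, and after scaling to a common median 6 and 4. Fitted on the 2 groups of 3 h alone, 1 was higher and 2 were lower. The 2 lower were Slc9a3r1 and Slc6a12, and Slc6a12 passed the level only in PBS at 3 h, where it was high. At 6 h, 2 were higher without NmU 6 h replicate 3.

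The median log2 difference over the 117 was -0.01 at 0.8 h, -0.02 at 3 h, 0.09 at 6 h and 0.04 at 12 h, against -0.04, -0.03, 0.02 and -0.02 over all probe sets tested. Members of most families lay on either side of 0 at 3 h. Calls above it included amino acid, sugar, anion and phosphate carriers, and those below it nucleotide sugar carriers, Slc9a3r1 and Slc6a12. Metal ion carriers had 2 higher and 3 lower, and vitamin, heme and choline carriers 1 and 2. The medians of amino acid and sugar carriers at 3 h were 0.05 and -0.02.

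**Figure D2:**
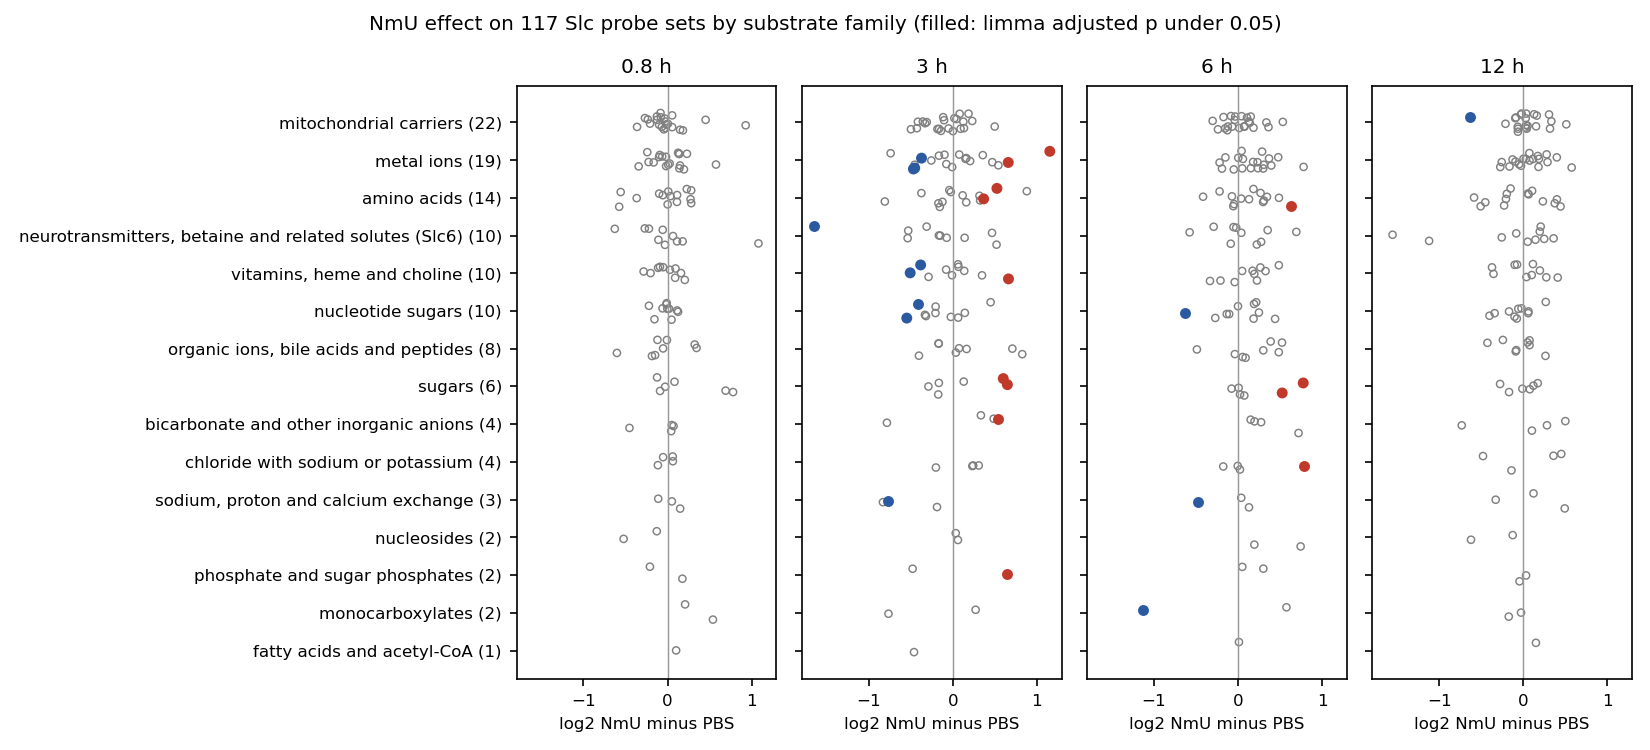
Log2 difference between NmU and PBS (horizontal) for each of the 117 probe sets, in rows by substrate family with the number of probe sets, in 1 panel for each time. Filled points were called at a limma adjusted p under 0.05 (red higher, blue lower); 18 are filled at 3 h, 7 at 6 h and 1 at 12 h.

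The 19 probe sets for 15 metal ion carriers had 2 higher and 3 lower at 3 h. The shares of all probe sets were 4.44% and 5.73%. At the other 3 times 0 of the 19 were called. The family's median difference was -0.01 at 3 h. The magnesium transporter Slc41a1 had the largest rise of any member at 3 h. Its PBS signals at 3 h were 71.1, 94.6, 76.9 and 60.1, and its NmU signals 161.9, 163.0 and 174.1. The groups did not overlap, and the log2 difference was 1.15 ± 0.16 (SE; limma adjusted p = 1.24e-05), or 2.23-fold. This call held without any 1 of the 31 arrays and under all other settings run. At 0.8 h the PBS arrays read 60.8, 69.1, 65.8 and 73.2 and the NmU arrays 101.2, 109.5, 84.0 and 107.4. All 4 NmU values lay above all 4 PBS values, yet the difference of 0.58 ± 0.15 missed the threshold (adjusted p = 0.0650). It passed with arrays scaled to a common median (adjusted p = 0.0461), with quantile normalisation (0.0412) and without NmU 0.8 h replicate 3 (0.0385). With the same difference it also passed when PBS 3 h replicate 2, PBS 3 h replicate 4 or NmU 12 h replicate 4 was left out of the fit (0.0383, 0.0386 and 0.0150). By 6 and 12 h the differences were 0.15 ± 0.15 and 0.12 ± 0.15.

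The zinc exporter Slc30a1 rose at 3 h from 28, 41.3, 53.1 and 29.8 in PBS to 48.7, 63.0 and 64.0 with NmU, by 0.66 ± 0.18 (limma adjusted p = 0.0151). Its lowest NmU array, at 48.7, lay below the highest PBS array, at 53.1, and the call was lost without replicate 1 of PBS or 2 or 3 of NmU at 3 h (adjusted p up to 0.0797). Slc11a2, the proton-coupled importer of iron, fell by 0.47 (SE 0.12, adjusted p = 0.0103), from 136.0 to 175.6 on the PBS arrays to 102.3 to 115.7 with NmU. Its dimmer probe set did not follow, at 0.21 (adjusted p = 0.40), and the call was lost without NmU 3 h replicate 2 (0.0577). As a mean over both probe sets, Slc11a2 differed by -0.13 (adjusted p = 0.453). Of the zinc importers, Slc39a9 fell by 0.45 (SE 0.13). Slc39a4 fell by 0.37 (SE 0.10) on its dimmer probe set, while the brighter one differed by -0.16 (adjusted p = 0.53). The Slc39a9 call was lost without replicate 2 or 3 of PBS or 2 or 3 of NmU at 3 h (adjusted p up to 0.127), after scaling to a common median (0.0877), with quantile normalisation (0.0531) and with an intensity trend and robust prior (0.0532), and that of Slc39a4 without replicate 1 of PBS or 1 or 2 of NmU at 3 h (up to 0.0661). The zinc importer Slc39a6 was not called at any time, with a difference between -0.22 and 0.03. The copper importer Slc31a1 missed the threshold at 3 h on its brighter probe set (0.47 ± 0.17, limma adjusted p = 0.0844). The dimmer Slc31a1 probe set differed by 0.08 at 3 h (adjusted p = 0.815).

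Promoters are printed for members with the largest changes at 3 h, so that the sequence before each start stands beside its change. Of the 6 genes with the largest called change by their brightest probe set, 4 had an entry in the RefSeq promoter table at the outer start of the gene. Shown are the 250 bases before that start in GRCm38.p6, all on the + strand, 5′ to 3′: Slc41a1 at chr1:131827762-131828011, Slc20a1 at chr2:129198523-129198772, Slc9a3r1 at chr11:115163091-115163340 and Slc6a12 at chr6:121342324-121342573. Capitals mark CACGTG, the E-box bound by Myc and related factors, which reads the same on both strands, GGAAA, the core of sites for NFAT factors, on either strand (TTTCC on the printed one), and TGATGNAA, the core of the amino acid response element, on either strand.
Slc41a1: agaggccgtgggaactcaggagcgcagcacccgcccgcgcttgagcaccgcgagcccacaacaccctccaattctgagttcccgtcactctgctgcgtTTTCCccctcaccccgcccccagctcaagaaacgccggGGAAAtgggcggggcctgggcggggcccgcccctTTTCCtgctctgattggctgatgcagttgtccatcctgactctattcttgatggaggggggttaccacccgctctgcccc
Slc20a1: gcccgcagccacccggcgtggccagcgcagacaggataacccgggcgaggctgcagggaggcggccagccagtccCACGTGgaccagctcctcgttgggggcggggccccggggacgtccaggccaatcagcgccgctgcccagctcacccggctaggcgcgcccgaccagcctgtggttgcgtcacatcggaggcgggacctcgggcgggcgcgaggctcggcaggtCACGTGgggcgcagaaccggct
Slc9a3r1: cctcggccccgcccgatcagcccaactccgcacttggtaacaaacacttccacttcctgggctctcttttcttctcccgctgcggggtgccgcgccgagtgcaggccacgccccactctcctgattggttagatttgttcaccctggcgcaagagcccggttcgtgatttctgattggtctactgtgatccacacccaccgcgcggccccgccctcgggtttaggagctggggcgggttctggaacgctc
Slc6a12: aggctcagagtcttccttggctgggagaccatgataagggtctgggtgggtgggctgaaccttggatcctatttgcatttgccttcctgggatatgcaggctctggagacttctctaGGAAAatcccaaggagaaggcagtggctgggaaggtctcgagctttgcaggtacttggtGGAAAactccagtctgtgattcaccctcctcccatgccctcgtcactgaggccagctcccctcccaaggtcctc
Slc41a1, which rose by 1.15, holds 3 matches to GGAAA, beginning 152, 114 and 80 bases before the start. Slc20a1, which rose by 0.64, holds 2 matches to CACGTG, at 175 and 22 bases. Slc6a12 holds 2 matches to GGAAA and Slc9a3r1 none of the 3 motifs. Slc6a12 passed the signal level only in PBS at 3 h, where it was high. RefSeq gave 5 starts for Slc6a12 and 2 for Slc20a1, and which start these cells use was not tested. Over 19827 promoters of this length at outer starts, 5.57% hold CACGTG, 56.1% GGAAA and 3.95% TGATGNAA. Among the 47 member genes with such an entry, 6 hold CACGTG, 25 hold GGAAA and 0 hold TGATGNAA. A match describes these letters only.

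For amino acid carriers, 2 of 14 rose at 3 h, 1 rose at 6 h and 0 fell at any time. Their median difference was 0.05 at 3 h and 0.16 at 6 h. Of all probe sets, 4.44% were higher and 5.73% lower at 3 h, and 2.85% and 2.03% at 6 h. Slc1a5, which imports glutamine and other neutral amino acids, had the most lasting rise. At 6 h its PBS signals were 285.9, 240.2, 227.5 and 293.1 and its NmU signals 436.2, 376.2, 420.6 and 385.7. Every NmU array stood above every PBS array, at a difference of 0.63 ± 0.10 (SE, limma adjusted p = 2.98e-04), or 1.55-fold. That call held without any 1 array and under all other settings. At 3 h the difference was 0.37 ± 0.11 (adjusted p = 0.0326), from 244.5 to 318.0 in PBS to 349.9 to 401.3. It was lost without PBS 3 h replicate 2 or 3 or any NmU 3 h array, at an adjusted p of up to 0.161, and with a common median for all arrays (0.0506). At 12 h Slc1a5 differed by 0.38 ± 0.10 and was not called (adjusted p = 0.0739), although the groups did not overlap. At 0.8 h the difference was 0.01 ± 0.10.

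Slc3a2, the heavy chain of CD98, anchors several amino acid exchangers at the surface. On the PBS arrays of 3 h it read 1014.9, 1230.1, 1274.8 and 1753.6, and with NmU 2010.1, 1869.4 and 1714.3. PBS 3 h replicate 4 lay within the NmU range and the other 3 below it. The rise of 0.53 ± 0.16 (SE, limma adjusted p = 0.0326) was lost without replicate 1, 2 or 3 of PBS or 1 or 2 of NmU at 3 h (adjusted p up to 0.129) and after scaling to a common median (0.0611). At 6 h PBS arrays spanned 930.1 to 1343.8 and NmU arrays 1508.3 to 1685.5. Though these groups did not overlap, the difference of 0.49 ± 0.15 had an adjusted p of 0.0537. It passed without PBS 3 h replicate 4 (0.0235), PBS 6 h replicate 4 (0.0392), PBS 3 h replicate 1 (0.0377) or either replicate 4 of 0.8 h (0.0466 for PBS, 0.0306 for NmU), and with quantile normalisation (0.0426).

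The light chain Slc7a5, which carries leucine and other large neutral amino acids, was not called at any single time. It differed by 0.28 ± 0.11 at 0.8 h and by 0.32 ± 0.12 at 3 h (limma adjusted p = 0.524 and 0.0986), with PBS arrays of 778.9 to 946.6 and NmU arrays of 959.4 to 1163.5 at 3 h. Its F test for an effect at any time gave an adjusted p of 0.0486. The alanine and serine carrier Slc1a4 differed by -0.37 ± 0.17 at 3 h, and Slc38a2, a sodium-coupled importer that rises in amino acid shortage, by at most 0.30 at any time, and neither was called.

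Of 6 probe sets for 5 sugar carriers, 2 rose at 3 h and 2 at 6 h, against 4.44% and 2.85% of all probe sets. All 4 calls belonged to Slc2a3, the high-affinity glucose carrier Glut3. On the brighter probe set its PBS signals at 3 h were 92.3, 92.1, 111.5 and 134.2 and its NmU signals 163.6, 155.6 and 164.2. The rise was 0.60 ± 0.17 (SE, limma adjusted p = 0.0199). The other probe set read 94.1, 91.1, 95.2 and 48.9 in PBS and 110.9, 138.3 and 126.5 with NmU, a rise of 0.65 ± 0.20 (adjusted p = 0.0345). Neither probe set overlapped between groups. Because PBS 3 h replicate 4 was low on this second probe set and high on the first, leaving it out moved the second to 0.42 and ended its call (adjusted p = 0.118). That call was also lost without NmU 3 h replicate 2 or 3 (0.132 and 0.0969), and the call on the brighter probe set without replicate 1 or 2 of PBS or 1 or 3 of NmU at 3 h (up to 0.0684).

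At 6 h the brighter Slc2a3 probe set rose by 0.53 ± 0.16 (limma adjusted p = 0.0483) and the other by 0.78 ± 0.18 (adjusted p = 0.0113), from 65.8 to 81.3 in PBS to 120.1 to 149.5 with NmU. The first call was lost without 1 array in 21 of 31 fits, 7 of them of the 6 h groups, at an adjusted p of up to 0.161. The second was lost without NmU 6 h replicate 3 (0.0512). By 12 h the differences were 0.17 ± 0.16 and -0.01 ± 0.18.

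Slc2a1, the glucose carrier Glut1, stood apart at 0.8 h. There the PBS arrays read 127.9, 123.2, 143.4 and 94.7 and the NmU arrays 200.0, 190.8, 245.1 and 198.7, with no overlap. The difference of 0.78 ± 0.22 was not called (limma adjusted p = 0.148). It was called, with the same difference, once PBS 3 h replicate 2 or 4 was left out of the shared spread (adjusted p = 0.0230 and 0.0386). These arrays read 280.8 and 88.1, against 142.3 and 150.3 on the other 2 of their group. At 3 h the difference was 0.13 ± 0.24, at 6 h 0.01 ± 0.22 and at 12 h -0.27 ± 0.22. Of the 117 probe sets, only Slc2a1 and Slc41a1 had groups that did not overlap at 0.8 h, or 1.71% against 5.02% of all probe sets.

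**Figure D3:**
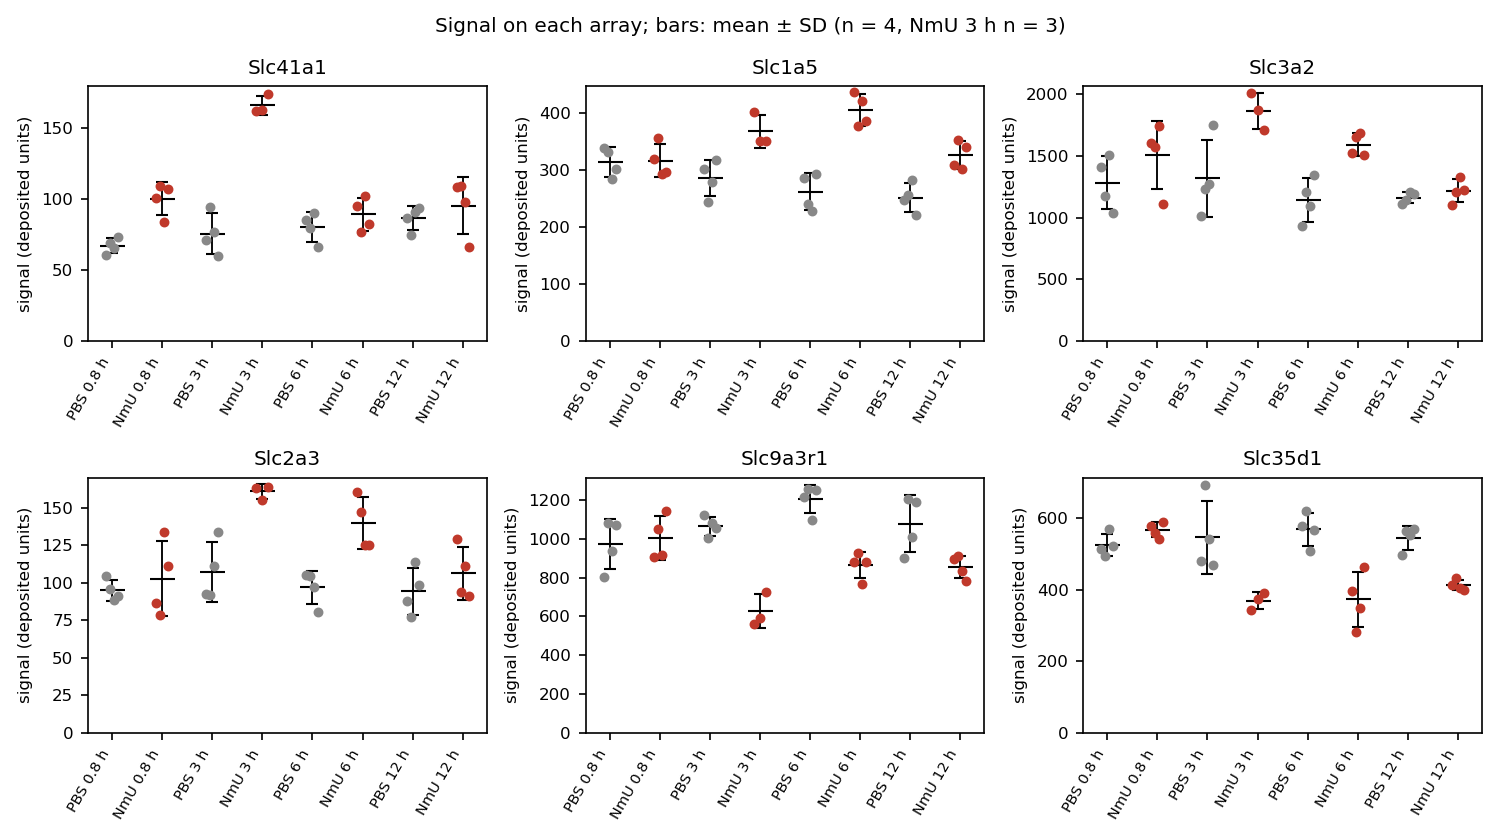
Signal on every array in deposited units (vertical, from 0) for 6 members in the 8 groups, PBS grey and NmU red, with the mean and SD of each group (n = 4, NmU 3 h n = 3). Slc41a1, Slc1a5, Slc3a2 and Slc2a3 (brighter probe set) were higher at 3 h, and Slc9a3r1 and Slc35d1 lower at 3 and 6 h.

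Carriers of anions, phosphate and chloride gave 1 call each, of 4, 2 and 4 probe sets. Of all probe sets, 4.44% were higher at 3 h and 2.85% at 6 h. Slc4a2, which exchanges chloride for bicarbonate, rose at 3 h by 0.54 ± 0.14 (SE, limma adjusted p = 0.00952). Its PBS arrays read 215.6, 154.7, 177.1 and 221.4 and its NmU arrays 350.9, 239.2 and 252.9. NmU 3 h replicate 1 was the highest, and without it the difference was 0.37 (adjusted p = 0.120). Slc20a1, a sodium-phosphate importer, rose from 200.7, 147.0, 192.8 and 254.8 to 346.5, 275.0 and 296.5 at 3 h, by 0.64 ± 0.16 (adjusted p = 0.00742). Its groups did not overlap at 3 h, and the call was lost without NmU 3 h replicate 1 (0.0613). At 0.8 h Slc20a1 differed by -0.21 ± 0.15.

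The potassium-chloride cotransporter Slc12a4 was called at 6 h. It read 73.2, 72.6, 82.8 and 75.4 in PBS and 129.0, 127.7, 142.5 and 123.4 with NmU, 1.72-fold with no overlap (0.78 ± 0.15, limma adjusted p = 0.00222). The call held without any 1 array and under all other settings. At 3 h the difference was 0.23 ± 0.17 and at 12 h 0.36 ± 0.15, neither called. The sodium-potassium-chloride importer Slc12a2 was not called, at -0.20 to -0.05 over the 4 times.

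Nucleotide sugar carriers were lower where called. Of 10 probe sets for 9 genes, 2 fell at 3 h and 1 at 6 h, where 5.73% and 2.03% of all probe sets were lower. At any time 0 rose, with a median difference of -0.20 at 3 h and 0.09 at 6 h. Slc35d1, which brings UDP-glucuronic acid and UDP-N-acetylgalactosamine into the endoplasmic reticulum, read 480.7, 693.1, 541.3 and 469.0 in PBS and 344.2, 374.2 and 390.5 with NmU at 3 h. At 6 h PBS arrays read 579.4, 620.6, 508.3 and 567.8 and NmU arrays 397.5, 281.3, 350.1 and 464.4. Neither time had overlapping groups. Slc35d1 fell by 0.55 at 3 h and fell by 0.63 at 6 h (SE 0.13 and 0.12, limma adjusted p = 0.00517 and 0.00149). Both calls held without any 1 array, and both were lost with only the 2 groups compared (0.146 and 0.0832). At 12 h the difference was -0.40 ± 0.12 (adjusted p = 0.110), still without overlap. The Golgi member Slc35c2 fell at 3 h by 0.41 (SE 0.11, adjusted p = 0.0194), a call lost without replicate 4 of PBS or 1 or 2 of NmU at 3 h (up to 0.0802) and after scaling to a common median (0.105). The CMP-sialic acid carrier Slc35a1 differed by between 0.02 and 0.27.

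Slc9a3r1, the scaffold also known as NHERF1 or EBP50, had the lowest adjusted p of any fall among the 117. Its PBS signals at 3 h were 1120.1, 1004.5, 1079.9 and 1054.9 and its NmU signals 562.3, 591.8 and 724.6. The highest NmU array lay below the lowest PBS array. Slc9a3r1 fell by 0.77 at 3 h (SE 0.12, limma adjusted p = 5.62e-05), so that PBS stood 1.71-fold above NmU. At 6 h it read 1096.8 to 1255.9 in PBS and 768.2 to 927.1 with NmU, and fell by 0.48 (SE 0.11, adjusted p = 0.00856). Both calls held without any 1 array and under all other settings. At 12 h the difference was -0.33 ± 0.11 and was not called (adjusted p = 0.192), and at 0.8 h it was 0.05 ± 0.11. The related Slc9a3r2 differed by -0.83 ± 0.46 at 3 h on a dim probe set, and the proton exchanger Slc9a8 by -0.19 ± 0.09, and neither was called.

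In the group of vitamin, heme and choline carriers, 1 of 10 probe sets rose and 2 fell at 3 h. Of all probe sets, 4.44% were higher and 5.73% lower at that time. Slc5a6, the sodium-dependent importer of biotin and pantothenate, rose by 0.66 ± 0.20 (limma adjusted p = 0.0286), from 53.9, 39.4, 59.2 and 101.0 in PBS to 99.0, 88.8 and 96.1. PBS 3 h replicate 4 exceeded all 3 NmU arrays, and the call was lost without PBS 3 h replicate 1, 2 or 3 or any NmU 3 h array (adjusted p up to 0.114). The choline carrier Slc44a1 fell by 0.51 (SE 0.15, adjusted p = 0.0254), from 114.2, 85.0, 108.5 and 117.4 to 66.5, 80.3 and 76.6. At 12 h it stood the other way, at 96.3 to 115.7 in PBS and 122.3 to 147.8 with NmU, a difference of 0.41 ± 0.14 that was not called (adjusted p = 0.183). Its 3 h call was lost without replicate 1, 3 or 4 of PBS or 1 or 3 of NmU at 3 h (up to 0.132) and under the scaling to a common median and quantile normalisation. The heme carrier Slc48a1 fell by 0.38 (SE 0.12, adjusted p = 0.0384), a call lost without PBS 3 h replicate 1, 2 or 4 or any NmU 3 h array (up to 0.149), after scaling to a common median (0.167) and with quantile normalisation (0.0749). The folate carrier Slc19a1 was not called at any time on either of its 2 probe sets.

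The mitochondrial carriers, the largest family here with 22 probe sets for 19 genes, gave 0 calls at 0.8, 3 and 6 h and 1 at 12 h. Of all probe sets, 4.44% were higher and 5.73% lower at 3 h, and 0.404% lower at 12 h. Slc25a53, an orphan member of the family, read 199.3, 245.3, 214.2 and 275.1 in PBS at 12 h and 150.3, 177.6, 139.0 and 136.3 with NmU. It fell by 0.63 (SE 0.15, limma adjusted p = 0.0274) with no overlap. This only solute carrier call of 12 h was lost without replicate 2 or 4 of PBS or 1, 3 or 4 of NmU at 12 h (adjusted p up to 0.0955), after scaling to a common median (0.0873) and with only the PBS and NmU arrays of 12 h in the fit (0.126). The adenine nucleotide exchanger Slc25a4 stayed between -0.08 and 0.04 at all 4 times, with an SE of 0.09 to 0.10. At 3 h its 95% interval ran from -0.19 to 0.23. The citrate exporter Slc25a1 differed by -0.11 at 3 h on its brighter probe set, and Slc25a25, an ATP-magnesium and phosphate carrier, by 0.45 ± 0.15 at 0.8 h (adjusted p = 0.29). The family's median difference was -0.04, -0.08, 0.03 and 0.03 at the 4 times.

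Both of the largest called falls belonged to dim probe sets. Slc6a12, a betaine and GABA importer, read 20.7, 22.2, 32.6 and 23.5 in PBS at 3 h and 10.9, 1.6 and 7.3 with NmU, 1 of them at the floor. It fell by 1.66 (SE 0.47, limma adjusted p = 0.0220), but passed the signal level in 1 group, PBS at 3 h, so that it was kept by the very group in which it was high. Without replicate 3 of PBS or 2 or 3 of NmU at 3 h the call was lost (up to 0.106), as it was with the floor at the 40th percentile (0.221). Slc16a8, a monocarboxylate carrier, read 28 to 34.9 in PBS and 9.7 to 18.4 with NmU at 6 h and fell by 1.13 (SE 0.33, adjusted p = 0.0451). That call was lost in 14 of the 31 fits without 1 array, among them all 8 without an array of the 6 h groups, at an adjusted p of up to 0.133.

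Slc16a1, the lactate and pyruvate carrier Mct1, differed by 0.58 ± 0.22 at 6 h without overlap and was not called (limma adjusted p = 0.140). Of the other Slc6 members, Slc6a6, the taurine importer, was not called on either probe set at any time. At 12 h a Slc6a2 probe set differed by -1.55 ± 0.42 (adjusted p = 0.0677) and the brighter Slc6a2 probe set by 0.25 ± 0.37, so that these probe sets of one gene disagreed in sign. The nucleoside carrier Slc29a1 differed by 0.20 ± 0.13 at 6 h on its brighter probe set. None of the 8 probe sets for organic ion, bile acid and peptide carriers was called at any time.

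**Figure D4:**
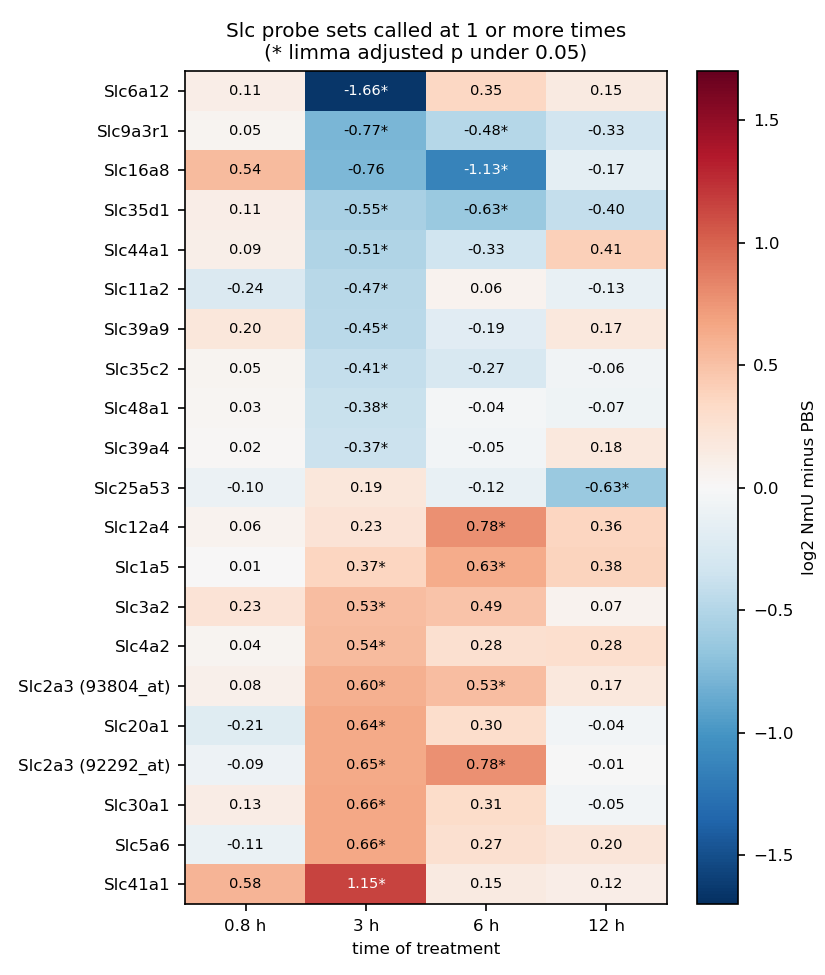
Log2 difference between NmU and PBS at each time (columns) for the 21 solute carrier probe sets called at 1 or more times (rows, ordered by the 3 h difference); an asterisk marks a limma adjusted p under 0.05. Slc41a1 has the highest 3 h value, 1.15, and Slc6a12 the lowest, -1.66.

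Whether the NmU effect differed between the 4 times was tested with a moderated F test, which called 4 of the 117 probe sets (17 for an effect at any time, against 11.6% of all), against 4.04% of all 7930. They were Slc41a1 (limma adjusted p = 0.0107), Slc9a3r1 (0.0143), Slc44a1 (0.0164) and Slc35d1 (0.0262). Without PBS 3 h replicate 4 this count was 10. That array had the lowest median correlation with its own group of any array, at 0.958. The next lowest was 0.963, for PBS 3 h replicates 1 and 2. For the other called members, such as Slc1a5 (0.0557), Slc2a3 and Slc3a2, a difference between times was not shown. In PBS alone, 0 of the 117 changed with time by limma (0.0126% of all), with 8 at an unadjusted p under 0.05, or 6.84% against 8.74% of all probe sets.

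Groups that did not overlap numbered 27 of 117 probe sets at 3 h (23.1%, against 18.7% of all), 20 at 6 h (17.1% against 12.0%) and 12 at 12 h (10.3% against 7.49%). At 6 h 79 of the 117 differences were above 0, or 67.5%, against 53.1% of all. This balance moved with the scaling: with a common median for all arrays, the median difference at 6 h was 0.01 over the 117 and -0.06 over all, against 0.09 and 0.02 without it.

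Genes that work with these carriers were counted from lists. The sodium pump, which maintains the gradient that many carriers use, had 3 measured genes and 0 calls at any time, with a limma difference of 0.14 ± 0.09 for Atp1b3 at 3 h. Of 9 measured partners and regulators 2 fell at 3 h and 0 rose, at a median of 0.01, where 5.73% of all probe sets were lower and 4.44% higher. These were the ubiquitin ligases Nedd4l, which fell by 0.70 (SE 0.15, limma adjusted p = 0.00218), and Nedd4, which fell by 0.50 (SE 0.10, adjusted p = 0.00114); such ligases mark membrane transporters for uptake and degradation. Nedd4l was also lower at 12 h, where it fell by 0.70 (adjusted p = 0.00462). A dimmer Nedd4l probe set fell at 3 h too (by 0.80) but was not called at 12 h (adjusted p = 0.0937), and a dimmer Nedd4 probe set differed by 0.10 at 3 h. Bsg and Emb, which escort monocarboxylate carriers to the surface, differed by 0.03 and -0.01 at 3 h.

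Of 16 measured genes of the amino acid response, 1 rose and 0 fell at each time, where 0.782%, 4.44%, 2.85% and 0.858% of all probe sets were higher, and the median was 0.03 at 3 h. This was Atf3 at 0.8 h (0.94 ± 0.12, limma adjusted p = 6.60e-06) and 3 h (0.69 ± 0.13), and Nupr1 at 6 h (0.97 ± 0.17) and 12 h (0.71 ± 0.17). Asns, the asparagine synthetase of that response, differed by -0.05 at 3 h and Atf4, its main factor, by 0.15. Among 14 measured pumps of the ABC, calcium and proton kinds, the proton pump subunit Atp6v1e1 rose at 3 h (0.29 ± 0.08). The drug exporter Abcb1a fell by 0.79 at 3 h (SE 0.22), and was also lower at 6 and 12 h, as the only gene of that list called lower.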

How the data were processed

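Total RNA of 31 samples was measured on 1 array each. The authors deposited 1-colour probe set intensities, linear and never below 0, whose means without the extreme 2% at each end were 150.095 to 150.113 on every array; the scanner, summary and scaling steps were not stated in the labels. They were used without further scaling. Of 12488 probe sets, 66 were controls. Of the rest, 10833 had a single gene symbol in the platform annotation, 396 several (1 of them with an Slc symbol, not used) and 1193 none; all 117 members matched RefSeq (GRCm38.p6) by Entrez number, with 0 symbols changed. For a gene with several probe sets the brightest stood for it where genes are counted.

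Intensities under 5.8, the 20th percentile, were raised to it before log2. A probe set was kept with a mean log2 value above that of 20.2, the 40th percentile, in at least 1 group; the mean intensity kept the same 117. limma 3.58.1 in R 4.3.3 (lmFit, eBayes; 23 residual and 2.72 prior degrees of freedom) fitted 8 group means on 31 arrays, with Benjamini-Hochberg adjustment over 7930 probe sets, two-sided. Errors of log2 differences are SE. Within-group array correlations were 0.951 to 0.982 across probe sets, with 0 identical arrays. The steps were tested on simulated data. Of simulated log2 changes of 0.5, 48%, 22%, 28% and 32% were recovered at 0.8, 3, 6 and 12 h. Of changes of 1, 68% were recovered at 3 h. Whether these shares differ between times was not tested. The simulated data gave 168 calls at 0.8 h, where the deposited data gave 62 higher and 5 lower. A probe set that was not called may therefore still have changed.

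Same-numbered PBS and NmU arrays deviated together at correlations of -0.22 to 0.20 over 15 pairs, of which 5 exceeded 0.1, so the numbers were not taken as pairs. Alternatives were other floors, an offset of 16, common median, quantile normalisation, no filter, the 2 groups alone, an intensity trend with a robust prior, a replicate block, each array left out and the mean over a gene's probe sets. Named genes were those called, well-known T cell transporters, and leading members of each family and list. The members, families and lists were chosen with earlier results of these data known.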

Additional observations from a re-analysis of the deposited data

Results flagged for a closer look

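Over the 21 called probe sets and the groups of 4 arrays, 147 groups were examined for an array standing apart, and 4 were found; chance gives about 1 in 20. Slc2a3 read 48.9 on PBS 3 h replicate 4 on its dimmer probe set, against 91.1 to 95.2 on the other 3 arrays. Slc35c2 read 160.2 on PBS 0.8 h replicate 3, against 207.8 to 216.1. Slc39a4 read 293.6 on NmU 12 h replicate 1, against 263.9 to 267.7. Slc4a2 read 210.5 on PBS 12 h replicate 4, against 193.2 to 194.9.

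The NmU effect differed between the 4 times by the F test for Slc41a1 (limma adjusted p = 0.0107), Slc9a3r1 (0.0143), Slc44a1 (0.0164) and Slc35d1 (0.0262). The log2 difference of Slc44a1 was -0.51 at 3 h and 0.41 at 12 h.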

How the results depend on the processing

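Of solute carrier probe sets, counts with 1 array left out ran from 0 to 2 higher and 0 to 0 lower at 0.8 h, 3 to 9 and 3 to 10 at 3 h, 2 to 5 and 2 to 3 at 6 h, and 0 to 0 and 0 to 2 at 12 h. Those for an effect differing between times ran from 3 to 10 and for time in PBS from 0 to 0. The 3 h lower count was 4 with arrays scaled to a common median, 2 with only the 2 groups compared and 5 with the replicate block; the 3 h higher count was 1 with only the 2 groups compared. At 0.8 h, 1 was higher with a common median and with quantile normalisation. At 12 h the lower count was 2 with the floor at the 40th percentile or the offset of 16, and 0 with a common median or the replicate block. The effect differed between times for 7 with the replicate block. Other counts stayed within 1.5 times the main one. No called difference of a named probe set changed sign. Called values were lost 94 times and kept 712 times in fits without 1 array, and lost 47 times and kept 219 times under other settings. The cause was not tested. Where groups were compared alone, fewer arrays also entered the fit. Most fits without 1 array left out an array of another time, which cannot change the difference itself. The tally of 94 and 712 therefore makes calls look steadier than fits without an array of their own time do. With the replicate block Slc3a2 (adjusted p = 0.0147) and Slc16a1 (0.0128) were also called at 6 h. The calls of Slc11a2 (0.0622), Slc35c2 (0.0965), Slc39a9 (0.0622) and Slc48a1 (0.149) at 3 h, Slc16a8 (0.109) at 6 h and Slc25a53 (0.0836) at 12 h were lost. The labels do not say whether same-numbered arrays are pairs, and the main fit did not take them as such. The filter on mean intensities, added after seeing the data, left 9 higher and 9 lower at 3 h. Scaling moved the median difference of all probe sets by less than 0.1 (log2). A common median for all arrays also ended the 3 h calls of Slc5a6 (adjusted p = 0.0554), Slc39a4 (0.0704) and Slc44a1 (0.0889) and the 6 h call of Slc2a3 on its brighter probe set (0.174), which quantile normalisation (0.0971) and no filter (0.0673) ended too; without a filter its dimmer probe set missed the threshold at 3 h (0.0513). Slc16a8 lost its call at 6 h under the floor at the 40th percentile (0.125), the offset of 16 (0.0542) and no filter (0.0751). With only the 2 groups compared, Slc41a1 and Slc9a3r1 kept their 3 h calls. Slc6a12 did too, but it was in the fit only through PBS at 3 h, where it was high. The mean over probe sets ended the 3 h call of Slc39a4 (0.0839). Values near the floor limit what can be read from Slc6a12 and Slc16a8.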
